A study of Mus musculus with 16 samples.

Results

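The high mobility group (HMG) chromatin protein genes were followed in myeloid-derived suppressor cells (MDSCs), immature myeloid cells that accumulate in tumor-bearing hosts and restrain T cells. The set was chosen by symbol as *Hmgb1*, *Hmgb2*, *Hmgb3*, *Hmgn1*, *Hmgn2*, *Hmgn3* and *Hmga1*, which are 7 of the 24421 gene symbols counted. All 7 symbols had a row in the count table, and 6 of them had counts, since *Hmga1* was at 0 in all 16 libraries. *Hmgb2* and *Hmgn2* were higher in granulocytic than in monocytic MDSCs of both genotypes, and *Hmgb1* was lower in both subsets of mice without *Nlrp3*, by 3.02-fold in M-MDSCs and 2.87-fold in G-MDSCs.

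HMG proteins are small, abundant proteins that bind DNA or nucleosomes with little sequence preference. HMGB proteins bend DNA through their HMG boxes, and HMGB1 can also leave stressed or dying cells and act on neighbors as an alarmin through receptors such as RAGE and TLR4. HMGN proteins bind the nucleosome core and compete with the linker histone H1, whereas HMGA proteins grip the minor groove of AT-rich DNA with their AT hooks.

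M-MDSCs (CD11b high Ly6C+ Ly6G-) and G-MDSCs (CD11b high Ly6C- Ly6G+) were sorted at a purity of at least 95% from the spleens of C57BL/6 mice of 6 to 12 weeks that carried B16.F10 tumors, a mouse melanoma line, implanted in the skin of the back. The WT mice and the *Nlrp3*-/- mice, in which an EGFP cassette disrupts *Nlrp3* throughout the host, numbered 4 each, and each mouse gave 1 library of each subset. The 4 groups of 4 libraries were thus WT M-MDSCs, *Nlrp3*-/- M-MDSCs, WT G-MDSCs and *Nlrp3*-/- G-MDSCs, all from tumor-bearing mice. Reads were made by a kit that primes on the poly(A) tail and gives about 1 read per captured transcript, without regard to its length.

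Between 2295967 and 6079866 reads per library fell on genes. Levels are given as normalized read counts (CPM, scaled to library size and TMM-normalized over all 16 libraries), a scale on which 3 counts are 0.349 to 1.17 CPM. *Nlrp3* itself was at 40.7 to 88.9 CPM in WT M-MDSCs and 0.514 to 1.88 CPM in *Nlrp3*-/- M-MDSCs, and at 252 to 331 CPM in WT G-MDSCs and 5.51 to 13.6 CPM in *Nlrp3*-/- G-MDSCs, so that the groups did not overlap in either subset. The monocyte chemokine receptor gene *Ccr2* was at 794 to 1563 CPM in M-MDSCs and 3.39 to 12.4 CPM in G-MDSCs, and the neutrophil chemokine receptor gene *Cxcr2* was at 0.209 to 3.52 CPM in M-MDSCs and 853 to 3194 CPM in G-MDSCs. *Ly6g* was not analysed here. The library of WT M-MDSC replicate 2 stood apart, since its 9 G-MDSC marker genes summed to 8756 CPM against 1454 to 1869 CPM in the other WT M-MDSC libraries. HMG calls that changed without it are given both ways.

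The genes lie apart from each other in the genome (mm10). *Hmgb1* is annotated at chr5:149046702-149184489 on the minus strand, *Hmgb2* at chr8:57511907-57515999 on the plus strand and *Hmgb3* at chrX:71555918-71560676 on the plus strand. *Hmgn1* is at chr16:96120618-96127729, *Hmgn2* at chr4:133964738-133968650 and *Hmgn3* at chr9:83109948-83146685, all on the minus strand, and *Hmga1* is at chr17:27556497-27563674 on the plus strand. Inside the annotated span of *Hmgb1* and on its strand lie the long noncoding RNA gene *Mm2pr* and *Gm8615*, a transcribed processed pseudogene at chr5:149155108-149156209. *Uspl1* overlaps the outermost end of that span on the other strand, from 149184350, and counting kept the strands apart. The RefSeq starts of *Hmgb1* used below have windows at chr5:149053008-149053307 and chr5:149051567-149051866. *Mm2pr*, *Gm8615* and *Uspl1* all lie upstream of both windows. Reads from a stretch that genes share on a strand cannot be assigned with certainty.

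Promoter windows from 250 bases before to 50 bases after a RefSeq start (GRCm38.p6) were found for 6 of the 7 genes, with none for *Hmgn3*. They were searched on both strands for the CCAAT box (CCAAT), for the TTTGAA motif of cell cycle genes, and for 2 forms of the E2F site (TTTGGCGC and TTTCGCGC). The windows of *Hmgb1*, *Hmgb2* and *Hmgn2* are shown because these genes carry the changes between genotypes or subsets, with matches in capitals.
Hmgb1, chr5:149053008-149053307, minus strand: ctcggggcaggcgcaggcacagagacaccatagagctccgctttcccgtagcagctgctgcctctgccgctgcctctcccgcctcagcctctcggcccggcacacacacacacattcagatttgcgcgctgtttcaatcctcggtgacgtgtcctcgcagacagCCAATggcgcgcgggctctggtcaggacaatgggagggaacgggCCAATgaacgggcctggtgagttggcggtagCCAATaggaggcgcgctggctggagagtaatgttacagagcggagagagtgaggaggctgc
Hmgb2, chr8:57511593-57511892, plus strand: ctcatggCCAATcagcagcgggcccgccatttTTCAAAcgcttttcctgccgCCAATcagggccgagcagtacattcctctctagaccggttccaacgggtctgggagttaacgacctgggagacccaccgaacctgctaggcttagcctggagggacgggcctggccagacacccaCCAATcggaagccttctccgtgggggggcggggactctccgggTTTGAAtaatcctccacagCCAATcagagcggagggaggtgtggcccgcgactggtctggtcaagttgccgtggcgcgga
Hmgn2, chr4:133967942-133968241, minus strand: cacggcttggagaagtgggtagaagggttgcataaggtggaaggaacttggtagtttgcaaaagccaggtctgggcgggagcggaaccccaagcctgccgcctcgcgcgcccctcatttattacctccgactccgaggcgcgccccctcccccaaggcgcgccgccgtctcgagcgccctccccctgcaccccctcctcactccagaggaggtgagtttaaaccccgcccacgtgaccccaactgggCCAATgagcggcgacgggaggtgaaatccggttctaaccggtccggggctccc

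The *Hmgb2* window held 4 CCAAT boxes and 2 TTTGAA motifs, the *Hmgb1* window 3 CCAAT boxes and no TTTGAA motif, and the *Hmgn2* window 1 CCAAT box. A second annotated start of *Hmgb1* had none of the motifs. The *Hmgb3* window held 3 CCAAT boxes and 1 TTTGAA motif, the *Hmgn1* window 2 CCAAT boxes, and both *Hmga1* windows none. No HMG window matched either E2F form. Among all 32851 mouse windows of this length, 37.4% held a CCAAT box and 3.37% held 3 or more. TTTGAA was found in 17.9%, with 2 or more matches in 2.31%, and the E2F forms in 0.514% and 0.323%. A match is a run of letters and says nothing of binding in these cells.

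*Hmgb1* had the same pattern in both subsets, with lower levels in every *Nlrp3*-/- library than in any WT library. Both subsets came from the same 4 mice of each genotype, so these are not independent comparisons. In M-MDSCs *Hmgb1* was at 6.88, 9.14, 10.2 and 7.88 CPM in WT replicates 1 to 4 and at 3.37, 3.92, 1.88 and 1.80 CPM in *Nlrp3*-/- replicates 1 to 4. The means were 8.52 ± 1.44 and 2.74 ± 1.07 CPM (SD, n = 4 each), which is 3.02-fold lower in *Nlrp3*-/- cells (log2 fold change -1.59, SE 0.35, adjusted p = 0.0149 by edgeR's quasi-likelihood test over all genes). In G-MDSCs it was at 6.68, 7.78, 13.8 and 7.01 CPM in WT and at 3.47, 3.70, 3.73 and 2.098 CPM in *Nlrp3*-/- libraries. There the means were 8.82 ± 3.36 and 3.25 ± 0.776 CPM, or 2.87-fold lower (log2 fold change -1.52, SE 0.42, adjusted p = 0.0227). WT G-MDSC replicate 3 was the highest of all libraries, and without it the log2 fold change in G-MDSCs was -1.19 with an adjusted p of 0.106. Without *Nlrp3*-/- G-MDSC replicate 4, the lowest of its group, it was -1.36 with an adjusted p of 0.0615.

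The *Hmgb1* values rest on few reads. WT libraries held 23 to 65 of them for M-MDSCs and 18 to 57 for G-MDSCs, whereas *Nlrp3*-/- libraries held 9 to 29 and 8 to 18. A correction for the GC content and length of transcripts kept the call in M-MDSCs (log2 fold change -1.39, adjusted p = 0.0278) and not in G-MDSCs (log2 fold change -1.22, adjusted p = 0.0724). Without WT M-MDSC replicate 2, the difference in M-MDSCs was -1.55 with an adjusted p of 0.0441. In these sorted bulk samples, fewer cells that express a gene and less RNA per cell cannot be told apart.

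The pseudogene *Gm8615* inside *Hmgb1* was likewise lower in every *Nlrp3*-/- than in any WT library of M-MDSCs, without a call. It was at 3.55 ± 0.609 CPM in WT and 1.55 ± 0.845 CPM in *Nlrp3*-/- M-MDSCs (SD, n = 4 each; log2 fold change -1.11, SE 0.47, adjusted p = 0.133), and at 4.06 ± 1.81 and 4.38 ± 2.63 CPM in WT and *Nlrp3*-/- G-MDSCs (log2 fold change 0.04, SE 0.52, adjusted p = 0.971), where the groups overlapped. *Mm2pr* was not analysed here. The last 500 bases of the longest coding *Hmgb1* transcript shared no run of 75 bases, the read length, with another gene, but 32.6% of the runs over the whole transcript did. Over all 7 coding transcripts 84 genes shared such runs, and the end of at least 1 shorter coding transcript was shared in full. Reads from these copies cannot be told apart from reads of *Hmgb1*.

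**Figure D1:**
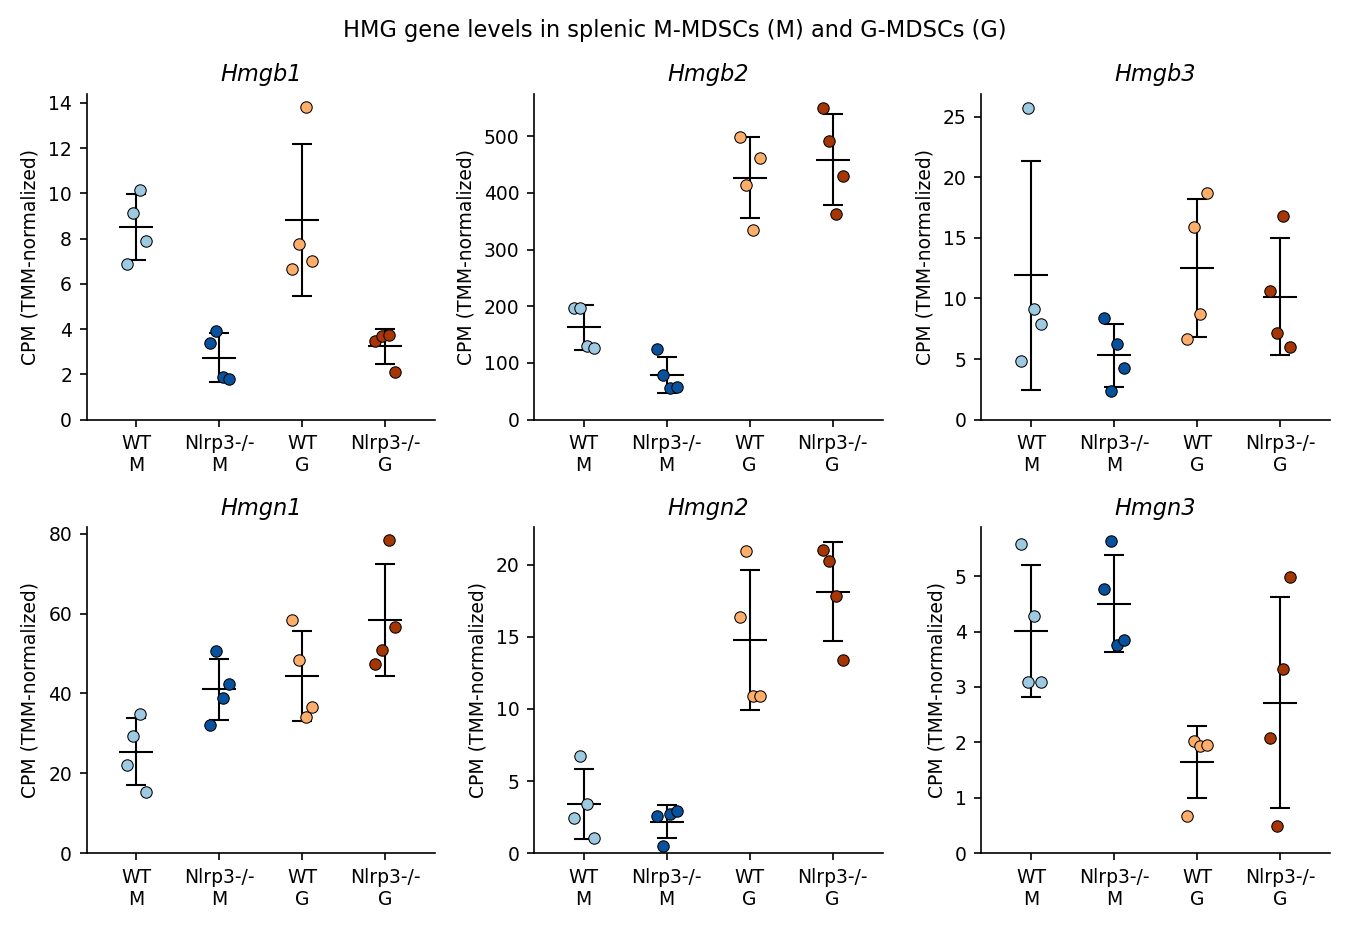
Level of the 6 HMG genes with counts in each library, in TMM-normalized CPM on linear axes from 0, by genotype in M-MDSCs (M) and G-MDSCs (G). Points are mice, horizontal lines are means and bars are SD (n = 4); *Hmgb1* lies below 4 CPM in all 8 *Nlrp3*-/- libraries and above 6 CPM in all 8 WT libraries, while *Hmgb2* and *Hmgn2* separate the subsets.

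*Hmgb2*, an HMGB gene expressed above all in proliferating and immature cells, was the member with the most reads, 270 to 2381 per library. In M-MDSCs it was at 197, 197, 131 and 127 CPM in WT and at 124, 78.3, 56.4 and 57.4 CPM in *Nlrp3*-/- libraries. All WT values lay above all *Nlrp3*-/- values, though by only a few CPM between the nearest pair, 127 and 124 CPM. The means of 163 ± 39.3 and 79.1 ± 31.8 CPM (SD, n = 4 each) gave a 2.00-fold lower level in *Nlrp3*-/- M-MDSCs (log2 fold change -1.001, SE 0.28, adjusted p = 0.0396 by edgeR's quasi-likelihood test). This call was lost in 7 of 8 fits that left out a single library, all but the fit without *Nlrp3*-/- M-MDSC replicate 1, with adjusted p up to 0.113 (log2 fold change -0.89 without WT M-MDSC replicate 2), and after the GC and length correction (log2 fold change -0.83, adjusted p = 0.0707).

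G-MDSCs of both genotypes held similar amounts of *Hmgb2*. It was at 498, 414, 334 and 462 CPM in WT and at 550.1, 491, 363 and 429 CPM in *Nlrp3*-/- libraries, ranges that overlapped widely. The means were 427 ± 71.1 and 458 ± 80.5 CPM, a log2 difference of 0.02 with a 95% confidence interval of -0.36 to 0.39 (adjusted p = 0.955). In a fit of all 16 libraries the genotype effect was 1.14 higher on the log2 scale in G-MDSCs than in M-MDSCs (SE 0.33). This difference of effects did not pass the test over all genes (adjusted p = 0.790 by edgeR's quasi-likelihood test). It was 0.87 to 1.29 in 21 alternatives, the mouse as a block among them, and was called in none. Their adjusted p was 0.0665 or more by edgeR or DESeq2, so that *Hmgb2* is not shown to respond differently in the subsets.

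*Hmgb3*, on the X chromosome and known from blood stem and progenitor cells, varied widely among WT M-MDSCs. It was at 4.83, 25.7, 9.10 and 7.88 CPM there and at 8.38, 2.39, 6.27 and 4.24 CPM in *Nlrp3*-/- M-MDSCs, and the highest value came from WT replicate 2. The means of 11.9 ± 9.41 and 5.32 ± 2.58 CPM overlapped (log2 fold change -1.14, SE 0.52, adjusted p = 0.163), and without that library the difference was -0.39. In G-MDSCs *Hmgb3* was at 6.68 to 18.7 CPM in WT and 6.03 to 16.8 CPM in *Nlrp3*-/- libraries (log2 fold change -0.37, SE 0.41, adjusted p = 0.570).

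*Hmgn1*, which codes for a nucleosome-binding protein of open chromatin, had higher means in *Nlrp3*-/- cells, in ranges that overlapped. In M-MDSCs it was at 22.1, 29.3, 34.8 and 15.4 CPM in WT and at 32.2, 50.7, 38.9 and 42.4 CPM in *Nlrp3*-/- libraries. The means were 25.4 ± 8.43 and 41.0 ± 7.68 CPM (log2 fold change 0.70, SE 0.24, adjusted p = 0.0783), short of the threshold of 0.05. In G-MDSCs the means were 44.4 ± 11.2 and 58.4 ± 14.0 CPM (log2 fold change 0.31, SE 0.23, adjusted p = 0.365).

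*Hmgn2* and *Hmgn3* had few reads and were not called between genotypes. *Hmgn2* had 3 to 48 reads per M-MDSC library, with means of 3.40 ± 2.44 CPM in WT and 2.19 ± 1.13 CPM in *Nlrp3*-/- cells (adjusted p = 0.479), and 14.8 ± 4.87 and 18.1 ± 3.44 CPM in WT and *Nlrp3*-/- G-MDSCs (adjusted p = 0.660). Without WT M-MDSC replicate 2 the log2 fold change of *Hmgn2* in M-MDSCs was -0.06 in place of -0.65. *Hmgn3* stood at 4.01 ± 1.19 and 4.50 ± 0.879 CPM in WT and *Nlrp3*-/- M-MDSCs (adjusted p = 0.751). With 2 to 19 reads per G-MDSC library, it was left out of the genotype test in G-MDSCs by the filter on low counts, where its means were 1.65 ± 0.653 CPM in WT and 2.72 ± 1.90 CPM in *Nlrp3*-/- cells.

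*Hmga1* had 0 counts in each of the 16 libraries, which allows up to 0.349 to 1.17 CPM, as far as counting error goes. In the last 500 bases of its longest coding transcript, 82.4% of the 75-base runs also occurred in *Hmga1b*, and such reads cannot be placed on either gene. *Hmga1b* was not analysed here, and the level of *Hmga1* is therefore uncertain. For *Hmgn2* 51.9% of these runs were shared. Over the full length of all *Hmgn2* coding transcripts, *Gm10282* was the gene that shared most. The ends of the longest coding transcripts of *Hmgb2*, *Hmgb3*, *Hmgn1* and *Hmgn3* shared none. Among the other coding transcripts, the most shared end reached 90.8% for *Hmgn2* and 70.4% for *Hmgb3*. Those of *Hmgb2*, *Hmgn1* and *Hmgn3* had no shared end.

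Between genotypes, 2 of the 6 members tested were called in M-MDSCs (*Hmgb1* and *Hmgb2*, both lower) and 1 of 5 in G-MDSCs (*Hmgb1*, lower), where a call needs an adjusted p under 0.05 and a fold change above 1.5. Over all genes tested, 7.10% were called lower and 3.51% higher in M-MDSCs, and 11.7% lower and 4.70% higher in G-MDSCs. Groups without overlap were found for the same members, against 19.3% of all genes for M-MDSCs and 24.4% for G-MDSCs. The median log2 fold change of the members was -0.83 in M-MDSCs and 0.02 in G-MDSCs, beside 0.07 and 0.03 over all genes tested. Without WT M-MDSC replicate 2 the median in M-MDSCs was -0.22, and *Hmgb1* alone was called. With library size as the sole scaling, the split of all calls moved from 351 higher and 709 lower to 684 higher and 569 lower in M-MDSCs, and from 436 and 1086 to 793 and 854 in G-MDSCs. *Hmgb1* remained lower in both subsets and *Hmgb2* in M-MDSCs under that scaling.

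**Figure D2:**
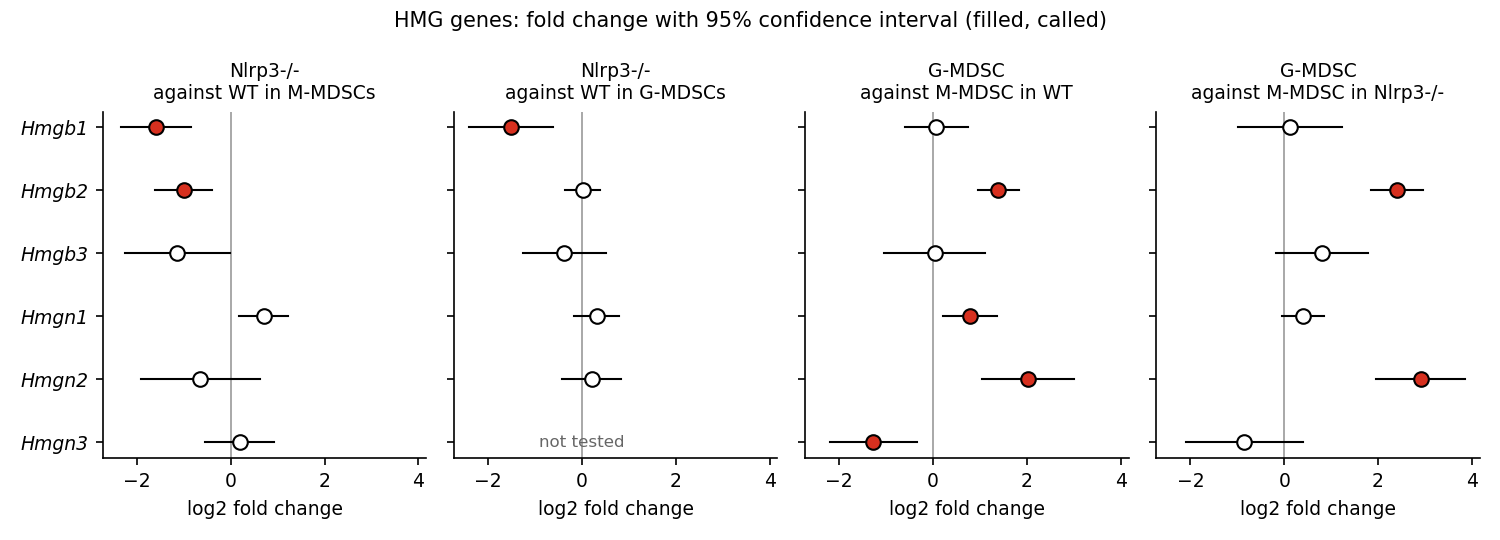
Log2 fold change of the HMG genes in each of the 4 comparisons, from edgeR's quasi-likelihood fits. Points are estimates, lines are 95% confidence intervals and filled points are called at an adjusted p under 0.05 and a fold change above 1.5; *Hmgn3* had too few counts to be tested between genotypes in G-MDSCs.

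Between subsets, *Hmgb2* and *Hmgn2* were higher in G-MDSCs than in M-MDSCs of every mouse. *Hmgb2* rose from the values given above to a 2.62-fold higher level in WT mice (log2 fold change 1.39, SE 0.20, adjusted p = 0.000106 by edgeR's quasi-likelihood test) and a 5.32-fold higher level in *Nlrp3*-/- mice (log2 fold change 2.41, SE 0.26, adjusted p = 2.80e-06). Within a mouse, the log2 difference ranged from 1.07 to 1.86 in the WT and from 2.15 to 2.90 in the *Nlrp3*-/- animals. No G-MDSC library reached down to any M-MDSC library. These comparisons share libraries with those between genotypes, so the values in *Nlrp3*-/- mice are not independent of the lower *Hmgb2* in their M-MDSCs.

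*Hmgn2*, whose protein binds nucleosomes like that of *Hmgn1*, had the same direction. It was at 2.42, 6.75, 3.39 and 1.03 CPM in WT M-MDSCs and at 16.4, 20.98, 10.9 and 10.9 CPM in WT G-MDSCs. In *Nlrp3*-/- mice it was at 2.56, 0.512, 2.72 and 2.96 CPM in M-MDSCs and at 21.02, 20.2, 17.8 and 13.4 CPM in G-MDSCs. The subsets did not overlap, and the level in G-MDSCs was 4.08-fold higher in WT (log2 fold change 2.03, SE 0.45, adjusted p = 0.00218) and 7.49-fold higher in *Nlrp3*-/- mice (log2 fold change 2.91, SE 0.44, adjusted p = 8.07e-05). With library size as the sole scaling these differences were 1.29 and 2.20 on the log2 scale, still called. The *Hmgb2* and *Hmgn2* calls were kept in all 18 alternatives of each comparison, which included each library left out, the mouse as a block, and the GC and length correction.

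**Figure D3:**
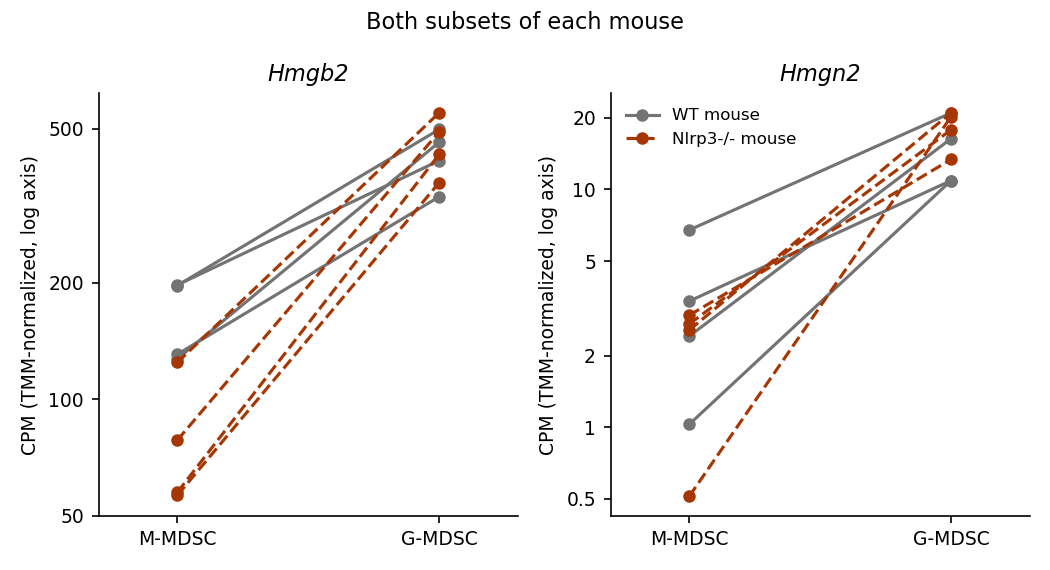
*Hmgb2* and *Hmgn2* in both subsets of the same mouse, in TMM-normalized CPM on log axes. Each line joins the M-MDSC and the G-MDSC library of a mouse, solid for the 4 WT and dashed for the 4 *Nlrp3*-/- mice; all 8 lines rise in both panels.

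*Hmgn1* and *Hmgn3* differed between subsets in WT mice with less support. *Hmgn1* was at 25.4 ± 8.43 CPM in M-MDSCs and 44.4 ± 11.2 CPM in G-MDSCs of WT mice (1.73-fold higher, log2 fold change 0.79, SE 0.26, adjusted p = 0.0223), although G-MDSC values from 34.2 CPM overlapped the highest M-MDSC value of 34.8 CPM. *Hmgn3* was lower in WT G-MDSCs, where it was at 0.668, 2.03, 1.94 and 1.95 CPM, than in WT M-MDSCs, where it was at 5.57, 3.09, 4.28 and 3.08 CPM (2.41-fold lower, log2 fold change -1.27, SE 0.43, adjusted p = 0.0237). *Hmgn1* was not called, at 0.03, with library size as the sole scaling, under which its sign turned in *Nlrp3*-/- mice, to -0.32. Under the same scaling *Hmgn3* was -2.01 in WT and was also called in *Nlrp3*-/- mice (-1.57, adjusted p = 0.0284). In WT mice *Hmgn3* was not called when all 16 libraries were fitted together (adjusted p = 0.0606) or with the mouse as a block plus the GC and length correction (adjusted p = 0.0760). Both WT calls were lost in 3 of 8 fits that left out a single library, that of *Hmgn1* without WT M-MDSC replicate 1 or 4 or WT G-MDSC replicate 1, and that of *Hmgn3* without WT M-MDSC replicate 1 or 3 or WT G-MDSC replicate 1. In *Nlrp3*-/- mice the differences were 0.40 for *Hmgn1* (SE 0.21, adjusted p = 0.121) and -0.85 for *Hmgn3* (SE 0.58, adjusted p = 0.234).

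*Hmgb1* and *Hmgb3* were not called between subsets. *Hmgb1* differed by 0.06 on the log2 scale between G-MDSCs and M-MDSCs of WT mice (95% confidence interval -0.61 to 0.74) and by 0.13 in *Nlrp3*-/- mice (-0.98 to 1.24). For *Hmgb3* the differences were 0.03 (-1.05 to 1.11) and 0.81 (-0.18 to 1.79), and in *Nlrp3*-/- mice all 4 animals had more in G-MDSCs, by 0.34 to 1.58. Apart from the last, these intervals are wide enough to hold a 1.5-fold change either way. Without WT M-MDSC replicate 2 the *Hmgb3* difference in WT mice was 0.72 (adjusted p = 0.1615 by edgeR's quasi-likelihood test). With library size as the sole scaling the sign of the *Hmgb1* difference turned in both genotypes, to -0.68 and -0.58, and that of *Hmgb3* in WT mice, to -0.69.

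In WT mice 3 of 6 members were called higher in G-MDSCs and 1 lower, and in *Nlrp3*-/- mice 2 of 6 were called higher and none lower at this threshold. Over all genes tested, 26.3% were called higher and 27.1% lower in WT, and 23.7% higher and 27.4% lower in *Nlrp3*-/- mice. Of the members, 3 in WT and 2 in *Nlrp3*-/- mice had no overlap between subsets, beside 51.9% and 50.2% of all genes. The median log2 fold change of the 6 members was 0.43 in WT and 0.60 in *Nlrp3*-/- mice, beside -0.05 and -0.12 over all genes. With library size alone the median of all genes in these comparisons fell to -0.79 and -0.83, and the *Hmgb2* difference became 0.65 in WT and 1.68 in *Nlrp3*-/- mice, still called. No member was called among the differences of genotype effects between subsets, where edgeR called 3 of 10696 genes (0.0280%) and DESeq2 called 8. Of the members, *Hmgb2* alone had an unadjusted p under 0.05 there.

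*Hmgb2* made up most of the counted reads of the HMGB genes in every library. Its share of the summed *Hmgb1*, *Hmgb2* and *Hmgb3* counts ran from 85.0% to 94.4% for WT and from 87.4% to 92.5% for *Nlrp3*-/- M-MDSCs. G-MDSCs had shares of 93.7% to 97.4% when WT and of 94.7% to 98.1% when *Nlrp3*-/-. The lowest share, 85.0% in WT M-MDSC replicate 2, had an exact 95% binomial interval of 83.2% to 86.7%, and the highest, 98.1% in *Nlrp3*-/- G-MDSC replicate 4, one of 97.4% to 98.7%. The intervals cover counting error only. Some coding transcripts of *Hmgb1* and *Hmgb3* had up to 100% and 70.4% of the 75-base runs of their ends shared with other genes. For *Hmgb2* no coding transcript had a shared end. The effect of this shared sequence on the share of counts was not tested.

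Among the 41 proliferation genes counted, 7 of 40 tested fell in *Nlrp3*-/- M-MDSCs and 7 of 38 in *Nlrp3*-/- G-MDSCs, and none rose, at the threshold above. Over all genes tested, 7.10% were called lower and 3.51% higher in M-MDSCs, and 11.7% and 4.70% in G-MDSCs. These shares also apply to the lists below. The median log2 fold change of the list was -0.73 and -0.34. Without WT M-MDSC replicate 2, whose summed level of these genes was the highest of its group, 4 of 40 fell in M-MDSCs, the median was -0.16, and *Top2a* was no longer called (adjusted p = 0.0673). *Mki67*, a marker of cycling cells, fell by 2.08 on the log2 scale in M-MDSCs (SE 0.41, adjusted p = 0.00889) and by 2.74 in G-MDSCs (SE 0.51, adjusted p = 0.00230). *Top2a*, the topoisomerase of dividing cells, fell by 1.63 (SE 0.42, adjusted p = 0.0297) and 1.99 (SE 0.36, adjusted p = 0.00187). The mitotic spindle genes *Nusap1* and *Cenpe* fell in both subsets and the motor gene *Kif11* in M-MDSCs. *Hmgb2* was lower beside these genes in M-MDSCs, whereas in G-MDSCs *Mki67* ran from 37.6 to 192 CPM in WT and from 8.66 to 40.2 CPM in *Nlrp3*-/- libraries while the *Hmgb2* ranges overlapped. The part of cycling cells in the *Hmgb2* values was not tested.

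**Figure D4:**
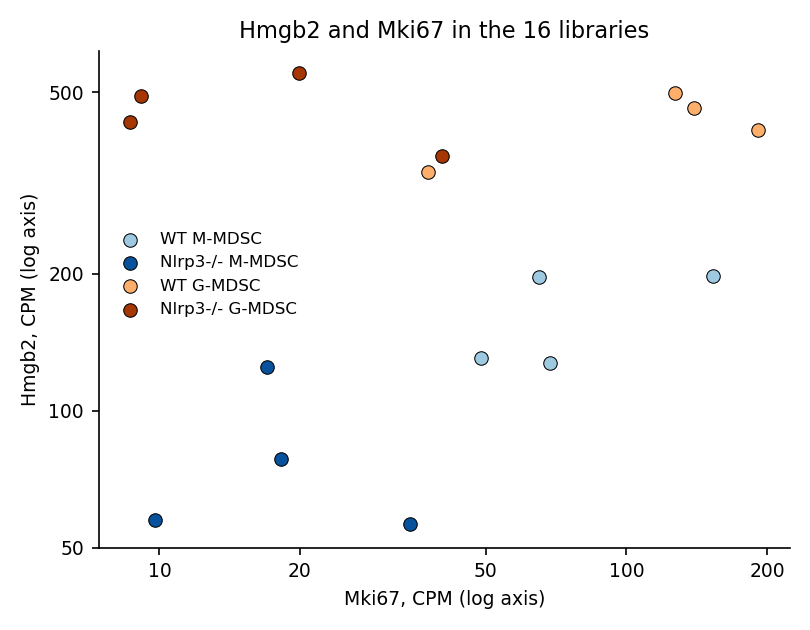
*Hmgb2* against *Mki67* in the 16 libraries, in TMM-normalized CPM on log axes, colored by group. The G-MDSC libraries sit at 334 to 550.1 CPM of *Hmgb2* at *Mki67* levels from 8.66 to 192 CPM, above all M-MDSC libraries.

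Between subsets, the proliferation genes moved in both directions. Of 40 members tested in WT mice 3 were higher and 3 lower in G-MDSCs, and of 38 in *Nlrp3*-/- mice 3 were higher and 4 lower. The split in WT mice without WT M-MDSC replicate 2 was 8 higher and 2 lower, with a median of 0.52 in place of -0.07. With no library left out, 26.3% of all genes tested were called higher and 27.1% lower in WT G-MDSCs. In *Nlrp3*-/- mice the shares were 23.7% and 27.4%, and these shares also apply to the lists below. *Mki67* (log2 fold change 0.56, adjusted p = 0.298 in WT) and *Top2a* (0.02, adjusted p = 0.969) were not called. The lamin gene *Lmnb1* was at 134.5 CPM in WT M-MDSCs and 2426 CPM in WT G-MDSCs (log2 fold change 4.17, adjusted p = 1.28e-07), while *H2afz*, a histone variant, and *Tuba1b*, a tubulin, were lower in G-MDSCs of both genotypes. Among 10 primary granule genes of immature myeloid cells, the protease genes *Elane* and *Prtn3* and the peroxidase gene *Mpo* were lower in G-MDSCs of both genotypes and *Srgn*, the serglycin gene, was higher, with 2 called higher and 5 lower in WT and 2 and 4 in *Nlrp3*-/- mice. Of the 10 progenitor genes 4 were tested between subsets and 2, *Flt3* and *Meis1*, were lower in G-MDSCs of both genotypes. Without WT M-MDSC replicate 2, *Myb* was called higher in WT G-MDSCs (log2 fold change 1.12, adjusted p = 0.0437 by edgeR's quasi-likelihood test), beside the 2 lower genes.

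Among other genes with an HMG box and the remaining HMGN and HMGA genes, several were called lower in *Nlrp3*-/- cells. Of 20 tested, 5 were called lower and 1 higher in M-MDSCs and 6 lower and 1 higher in G-MDSCs, with medians of -0.57 and -0.53. Without WT M-MDSC replicate 2, 3 were lower and 0 higher in M-MDSCs. The Wnt effector gene *Lef1* fell from 21.6 to 9.14 CPM in M-MDSCs (adjusted p = 0.0106) and from 44.2 to 18.4 CPM in G-MDSCs (adjusted p = 0.00325). *Bbx*, another HMG box gene, fell from 68.3 to 32.7 CPM (adjusted p = 0.0137) and from 92.0 to 38.4 CPM (adjusted p = 0.000192). Between subsets, *Hmgn5* and *Ssrp1*, the HMG box subunit of the histone chaperone FACT, were lower in G-MDSCs of both genotypes, among 4 higher and 4 lower of 20 in WT and 5 and 5 of 18 in *Nlrp3*-/- mice. *Hmgb4* was at 0 in all libraries.

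Linker histones, with which HMGN proteins compete, were called lower for 1 of 5 tested genes in *Nlrp3*-/- M-MDSCs and for 3 of 4 in *Nlrp3*-/- G-MDSCs, and none was called higher. *Hist1h1e* fell from 92.3 to 25.0 CPM in M-MDSCs (log2 fold change -1.86, adjusted p = 0.00842) and from 82.9 to 7.92 CPM in G-MDSCs (log2 fold change -3.46, adjusted p = 0.000286). *Hist1h1c* and *Hist1h1b* fell in G-MDSCs. Most transcripts of such clustered histone genes end without a poly(A) tail, on which the kit primes. *H1f0*, which has a poly(A) tail, was lower in G-MDSCs than in M-MDSCs of both genotypes, at 4.84 against 46.6 CPM in WT and 4.55 against 59.4 CPM in *Nlrp3*-/- mice.

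The SET complex contains HMGB2 and the nuclease TREX1, and it was listed with histone chaperones as 21 genes, all of them tested. In *Nlrp3*-/- cells 4 were called lower in M-MDSCs and 5 in G-MDSCs, and none was higher. *Supt16* and *Npm1* were the 2 called in M-MDSCs without WT M-MDSC replicate 2. *Supt16*, the larger FACT subunit, fell from 119.5 to 52.5 CPM in M-MDSCs and from 107 to 40.7 CPM in G-MDSCs (adjusted p = 0.00413 and 9.96e-05), and the nucleolar chaperone gene *Npm1* fell from 251 to 146 CPM and from 114 to 68.6 CPM (adjusted p = 0.00649 and 0.00842). Between subsets *Trex1* and *Nme1*, a second nuclease gene of the complex, were lower in G-MDSCs and *Anp32a* higher, in both genotypes, among 1 higher and 8 lower in WT and 1 and 6 in *Nlrp3*-/- mice.

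Receptors and binding partners of HMGB1 were counted for 23 genes. Between genotypes, *Siglecg*, an inhibitory lectin gene whose product binds HMGB1 together with CD24, rose from 15.8 to 25.3 CPM in M-MDSCs (adjusted p = 0.0346) and from 47.4 to 77.0 CPM in G-MDSCs (adjusted p = 0.0497). *Itgam*, the CD11b gene, fell in both (adjusted p = 0.0329 and 0.000632), and the complement gene *C1qa* rose in both. In all, 2 of 20 were called higher and 1 lower in M-MDSCs, and 3 of 18 higher and 1 lower in G-MDSCs. *Siglecg* and *Itgam* were not called in M-MDSCs without WT M-MDSC replicate 2 (adjusted p = 0.0571 and 0.0562). Between subsets 12 of 20 were higher and 4 lower in G-MDSCs of WT mice, and 13 and 2 of 20 in *Nlrp3*-/- mice, with medians of 1.31 and 1.19. They included *Trem1*, *Cd24a* and *Cxcr4*, which were higher in G-MDSCs of both genotypes. The RAGE gene *Ager* and *Tlr4*, named after their values were seen, were at 3.70 and 8.28 CPM in WT M-MDSCs and 24.9 and 39.1 CPM in WT G-MDSCs (adjusted p = 5.16e-05 and 4.43e-05).

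Genes for the modification and release of HMGB1 were listed as 24 genes. The acetyltransferase genes *Ep300* and *Crebbp*, the caspase gene *Casp4* and the kinase gene *Eif2ak2* were lower in *Nlrp3*-/- cells of both subsets, and they were the 4 genes called lower of 23 tested in M-MDSCs and of 22 in G-MDSCs. *Crebbp* and *Eif2ak2* were not called in M-MDSCs without WT M-MDSC replicate 2 (adjusted p = 0.0590 and 0.0839). *Casp4* fell from 67.5 to 31.4 CPM in M-MDSCs and from 104 to 52.6 CPM in G-MDSCs (adjusted p = 0.00443 and 0.000647). *Ep300* fell from 162 to 92.3 CPM and from 295 to 156 CPM (adjusted p = 0.00775 and 0.000299). The peroxiredoxin gene *Prdx1*, whose product oxidizes HMGB1, was the sole gene called higher, in G-MDSCs (from 35.5 to 61.9 CPM, adjusted p = 0.0323). Between subsets 7 of 23 were higher and 9 lower in G-MDSCs of WT mice and 7 and 8 in *Nlrp3*-/- mice. Over all genes, 26.3% were higher and 27.1% lower in WT and 23.7% and 27.4% in *Nlrp3*-/- mice. The deacetylase gene *Hdac4* was higher and *Prdx1* and *S100a10* were lower in G-MDSCs of both genotypes.

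Genes of other cells moved with some of the comparisons. Macrophage markers were higher in *Nlrp3*-/- cells for 6 of 8 tested genes in M-MDSCs and 7 of 8 in G-MDSCs, beside the fall of *Hmgb1* in both subsets and of *Hmgb2* in M-MDSCs. The 9 macrophage genes summed to 144 to 163 CPM in WT and 282 to 403 CPM in *Nlrp3*-/- M-MDSCs, and to 144 to 275 CPM in WT and 465 to 668 CPM in *Nlrp3*-/- G-MDSCs, with *Mertk* at 0 in all WT M-MDSC libraries. B cell markers were higher in G-MDSCs for 5 of 5 tested genes in WT and 4 of 5 in *Nlrp3*-/- mice. *Hmgb2* and *Hmgn2* were also higher there in both genotypes, and *Hmgn1* was called higher in WT mice alone. The 6 B cell genes summed to 92.9 to 121 CPM in WT and 77.0 to 149 CPM in *Nlrp3*-/- M-MDSCs, and to 219 to 309 CPM and 195 to 307 CPM in the G-MDSCs. The parts of these cells in the HMG values were not tested.

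Between genotypes the other lists had few calls. In M-MDSCs 1 of 4 B cell genes was lower, 3 of 12 secondary and tertiary granule genes and 1 of 8 G-MDSC markers (*Retnlg*) were higher, and 1 of 10 M-MDSC markers (*Klf4*) was lower. In G-MDSCs 1 of 5 B cell genes and 1 of 9 G-MDSC markers (*Cxcr2*) were lower, and 1 of 8 M-MDSC markers (*Csf1r*), 1 of 5 primary granule genes (*Nkg7*) and 1 of 4 platelet genes were higher. For progenitor, T and NK cell, erythroid, dendritic cell, eosinophil and basophil, and melanoma genes edgeR's test called 0 of 23 genes between genotypes in M-MDSCs, with 2 at an unadjusted p under 0.05, and 0 of 18 in G-MDSCs, with 4. When WT M-MDSC replicate 2 was left out, 1 of 12 secondary and tertiary granule genes (*Retnlg*) and 0 of 4 B cell genes were called in M-MDSCs, and the eosinophil gene *Prg2* was gained (log2 fold change 2.17, adjusted p = 0.0415). The globin genes were at 0 in all libraries, as were the pigment genes *Tyrp1*, *Tyr* and *Mlana*.

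The genes whose levels ran most like each member over the 16 libraries are given as a description, since the libraries fall into 4 groups that set most of the likeness. *Hmgb1* was most like *Rnpc3* (Pearson r = 0.97), *G3bp2* (0.95) and *Cdc5l* (0.93), genes of RNA processing or binding. *Hmgb2* was most like *Card6*, *Ubtf* and *Ankrd66* (all 0.96), of which *Ubtf* is itself an HMG box gene of rRNA transcription. *Hmgb3* was most like the mitotic genes *Ccnb2* (0.85), *Fbxo5* (0.84) and *Cdk1* (0.82). *Hmgn1* was most like *Ly6d* (0.91), *Snn* (0.89) and the B cell coactivator gene *Pou2af1* (0.88), *Hmgn2* like *Lin28a*, *Dab2ip* and *Acsl1* (all 0.95), and *Hmgn3* like *Slc25a17*, *Mrpl40* (both 0.90) and *Ddt* (0.88).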

How the data were processed

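Gene counts of 16 libraries (8 mice, both subsets of each) were analyzed. The authors aligned 75-base single reads with HISAT2 2.1.0 to mm10 and counted them per gene with strand-specific HTSeq, and the deposited values are raw counts per gene symbol, not normalized. Libraries took 15 or 17 amplification cycles, and which took which is not given in the sources used here. The QuantSeq 3' chemistry reads transcript ends, so levels depend on the annotated end and on copies of it.

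Counts were tested with edgeR 4.0.16 (quasi-likelihood test, filterByExpr, TMM, R 4.3.3) over all genes, with Benjamini-Hochberg adjustment, in fits of 4 against 4 libraries. A gene was called at an adjusted p under 0.05 and a fold change above 1.5, and the difference of genotype effects at an adjusted p under 0.05 in 1 fit of 16 libraries. Alternatives were DESeq2 1.42.0, an edgeR exact test, other normalizations, no filter, no fold minimum, all 16 libraries in a fit, GC and length correction, a replicate block, and each library left out. The scripts were tested on simulated data. Counts of called list genes without WT M-MDSC replicate 2 were added after seeing the data.

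Totals were 2295967 to 6079866 counts per library, and 3 counts were taken as the limit that a count of 0 allows; intervals and limits cover counting error only. No 2 replicates were identical. Each replicate is a mouse, and replicate numbers pair the subsets of a mouse (mean correlation of deviations 0.239 in WT and 0.190 in *Nlrp3*-/- mice), not the genotypes. Symbols were matched to GENCODE M21 for 24054 of 24421. The members and lists were chosen with earlier results of these data known. Of each list, up to 4 called genes with the smallest p per comparison could be named. Genes named outside this rule, such as *Ager*, *Tlr4* and single marker genes, were chosen after their values were seen. Results for some genes of the lists are not reported here.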

Additional observations from a re-analysis of the deposited data

Results flagged for a closer look

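In 58 genes named here, 231 groups of 4 libraries were screened for a library far from its group, and 23 were flagged; chance flags about 1 in 20. Among the HMG genes, *Hmgb1* was at 13.8 CPM in WT G-MDSC replicate 3 against 6.68 to 7.78 CPM in the others, and at 2.098 CPM in *Nlrp3*-/- G-MDSC replicate 4 against 3.47 to 3.73 CPM. *Hmgn2* was at 0.512 CPM in *Nlrp3*-/- M-MDSC replicate 2 against 2.56 to 2.96 CPM, and *Hmgn3* at 0.668 CPM in WT G-MDSC replicate 1 against 1.94 to 2.03 CPM. The pseudogene *Gm8615* was at 8.32 CPM in *Nlrp3*-/- G-MDSC replicate 1 against 2.89 to 3.21 CPM. The related gene *Hmgn5* was at 27.5 CPM in WT M-MDSC replicate 1 against 38.7 to 39.5 CPM and at 22.3 CPM in WT G-MDSC replicate 2 against 13.2 to 14.4 CPM.

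WT M-MDSC replicate 2 was high for *Top2a* (221.6 CPM against 60.7 to 82.9 CPM), *Nusap1* (55.8 against 14.3 to 16.7), *Cenpe* (76.9 against 18.4 to 24.7), *Kif11* (21.4 against 5.17 to 6.17), *Mpo* (102.1 against 23.3 to 29.4) and *Prg2* (18.3 against 1.78 to 2.60). WT G-MDSC replicate 2 was high for *Lmnb1* (3332 CPM) and *Prg2* (8.80 CPM) and low for *Tlr4* (32.5 CPM). WT G-MDSC replicate 1 was low for *Cd24a* (388 CPM) and high for *Nkg7* (21.03 CPM). *Ccr2* was high in *Nlrp3*-/- M-MDSC replicate 1 (1080.0 CPM), *Meis1* low in WT M-MDSC replicate 1 (2.79 CPM) and *Hist1h1e* low in WT M-MDSC replicate 3 (35.7 CPM). *Mertk* was above 0 in a single library of each G-MDSC group, at 0.778 CPM in WT replicate 4 and 0.8288 CPM in *Nlrp3*-/- replicate 3.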

How the results depend on the processing

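The *Hmgb2* and *Hmgn2* differences between subsets kept their direction and call in all 18 alternatives of both genotypes, and *Hmgb1* was lower in *Nlrp3*-/- cells in all 18 of both subsets, with its call lost in 2 for M-MDSCs and 5 for G-MDSCs. The replicate number of WT and *Nlrp3*-/- mice is shared by different animals (mean correlation -0.157 and -0.152), and a replicate block gave 425 genes called and 1 HMG gene for M-MDSCs (*Hmgb1* adjusted p = 0.0571) and 985 and 0 for G-MDSCs (*Hmgb1* adjusted p = 0.0645). The GC and length correction gave 662 genes and 1 HMG gene for M-MDSCs and 940 and 0 for G-MDSCs, and with the block 83 and 0, and 452 and 0. Between subsets, where the block is the mouse, the block alone changed no HMG call, and with the GC and length correction *Hmgn3* was lost in WT mice (adjusted p = 0.0760). For the difference of genotype effects, where edgeR called 3 genes (480 at an unadjusted p under 0.05), DESeq2 called 8 and the fit with no filter 5.

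With library size as the sole scaling, *Hmgb1* was at 10.8 CPM in WT M-MDSCs, *Hmgb2* at 204 CPM in WT M-MDSCs, 320.3 CPM in WT G-MDSCs and 354 CPM in *Nlrp3*-/- G-MDSCs, *Hmgn1* at 56.2 CPM in *Nlrp3*-/- M-MDSCs and 33.1 CPM in WT G-MDSCs, *Hmgn2* at 14.1 CPM in *Nlrp3*-/- G-MDSCs, and *Hmgn3* at 6.19 CPM in *Nlrp3*-/- M-MDSCs. The sign between subsets turned under this scaling for *Hmgb1* (-0.68 in WT, -0.58 in *Nlrp3*-/- mice), *Hmgb3* (-0.69 in WT) and *Hmgn1* (-0.32 in *Nlrp3*-/- mice). In WT mice it also turned for *Hmgb3* with no filter (-0.022) and for *Hmgb1* with the GC correction (-0.033) and with the block added (-0.075). The cause was not tested.

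With single libraries left out, 450 to 1783 genes and 1 to 2 HMG genes were called between genotypes in M-MDSCs, 1104 to 1544 genes and 0 to 1 HMG genes in G-MDSCs, 2 to 4 HMG genes between subsets in WT mice, and 2 to 5 genes for the difference of effects. Values that changed sign ranged from -0.073 to 0.12 for *Hmgb2* between genotypes in G-MDSCs, from -0.24 to 0.19 for *Hmgb1* and -0.26 to 0.72 for *Hmgb3* between subsets in WT mice, from -0.029 to 0.32 for *Hmgb1* in *Nlrp3*-/- mice, and from -0.0295 to 0.50 for *Hmgb1* and -0.036 to 1.15 for *Hmgb3* in the difference of effects. The values of *Hmgb1*, *Hmgn2* and *Hmgn3* rest on few reads, and why these were few was not tested.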
